A study of Oryza sativa with 11 samples.

Results

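The PIN auxin efflux carriers of rice were examined in root tips of plants grown with and without added salt. They were taken as every gene whose RefSeq symbol or synonym begins with PIN, with or without the prefix Os, followed by a digit. Of 9 such genes, 5 had a probe set in the annotation used, and these 5, of 17905 rice genes with a probe set of their own, had 6 of the 57258 probe sets analysed. They were OsPIN9 (LOC4327533), OsPIN5a (LOC4324368), OsPIN5c (LOC4346116), OsPIN2 (LOC4341736) and OsPIN3a (LOC4326565, also called OsPIN3t and OsPIN10a), the last with both an ordinary probe set and one of the kind that may bind RNA of other genes. OsPIN1a (PIN1A), OsPIN1b (LOC4349716), OsPIN1c (LOC4340580) and OsPIN5b (LOC4347506) had no probe set named for them and were not analysed here. Some synonyms belong to more than 1 of these genes (OsPIN5b is also listed for LOC4346116), so the LOC symbol is what identifies a gene below. RNA was measured on 11 Affymetrix Rice Genome Arrays, with 1 array for each biological replicate. FL478 is a salt-tolerant recombinant inbred line and IR29 a related salt-sensitive genotype. Of the arrays, 3 were of FL478 in the control, 3 of FL478 under salt, 2 of IR29 in the control and 3 of IR29 under salt. Salt-treated plants received NaCl with CaCl2, raised in steps and then held for some days, and the control plants grew in the nutrient solution alone. The labels speak of hydroponic culture and the study's methods of sand tanks. FL478 is 1 inbred line, so a difference between it and IR29 is a difference between 2 genotypes and is not a measure of tolerance as such.

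Auxin is a growth hormone that moves from cell to cell, and PIN proteins are the membrane carriers that let it out of the cell. Their placement on one side of a cell sets the direction of flow, which at the root tip guides cell division, elongation, bending toward gravity and the start of lateral roots. In Arabidopsis, the PIN proteins with a long central loop lie in the plasma membrane, while those of the PIN5 type have a short loop and lie largely in the endoplasmic reticulum, where they take part in auxin balance inside the cell. The comparisons below ask whether the RNA of these carriers differed between salt and control within each genotype, whether the salt effect differed between genotypes, and whether the genotypes differed at a given treatment.

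The deposited values are linear signals in intensity units, which the authors scaled to the same trimmed mean on every array. For the tests, 32 was added to each signal and the sum was taken to log2, which shrinks the differences of dim probe sets. All groups were fitted together over the 11 arrays with limma, with Benjamini-Hochberg adjustment over the 57258 probe sets, and a difference was called at an adjusted p under 0.10. Over all probe sets, r was 0.963 to 0.978 between arrays within a group and 0.945 to 0.975 across groups. Between 36.6% and 41.9% of the signals on an array were under 32. The log2 ratio of the GAPDH control probe sets at the 3' and 5' ends, a measure of RNA integrity, was 0.51 to 0.62 in the FL478 control arrays and 0.65 to 0.92 under salt. In IR29 it was 0.65 to 0.66 in the control and 0.71 to 1.03 under salt, so in neither genotype did the control and salt arrays overlap. Of 3 measured shoot and leaf markers, GLK1, a regulator of chloroplast development, stayed under 32 on every array, RBCS, the small subunit of Rubisco, lay between 107.6 and 241.1, and CAB2R, a light-harvesting protein, between 88 and 519.5. Of the root markers, QHB of the quiescent centre lay between 95.9 and 169.9 and Lsi1, a silicon channel, between 26203.2 and 35605.9.

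Within each genotype, every salt array of OsPIN9 and of OsPIN5a was under every control array, as for 1.57% of all probe sets. OsPIN5c was dim, with lower group means under salt. OsPIN2 had an averaged log2 difference of -0.08 (95% interval -0.38 to 0.22). Averaged over both genotypes, OsPIN9 fell by 1.43 on the log2 scale (SE 0.28, limma adjusted p = 0.0935), where 0.547% of all probe sets were called. It was the 1 PIN probe set of 6 that limma called in any comparison. Its call depended on nearly every array, as described below. The averaged values of the 2 OsPIN3a probe sets differed in sign (0.18 and -0.29), and neither was called. In such bulk RNA, fewer cells of a type and less RNA per cell cannot be told apart.

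**Figure D1:**
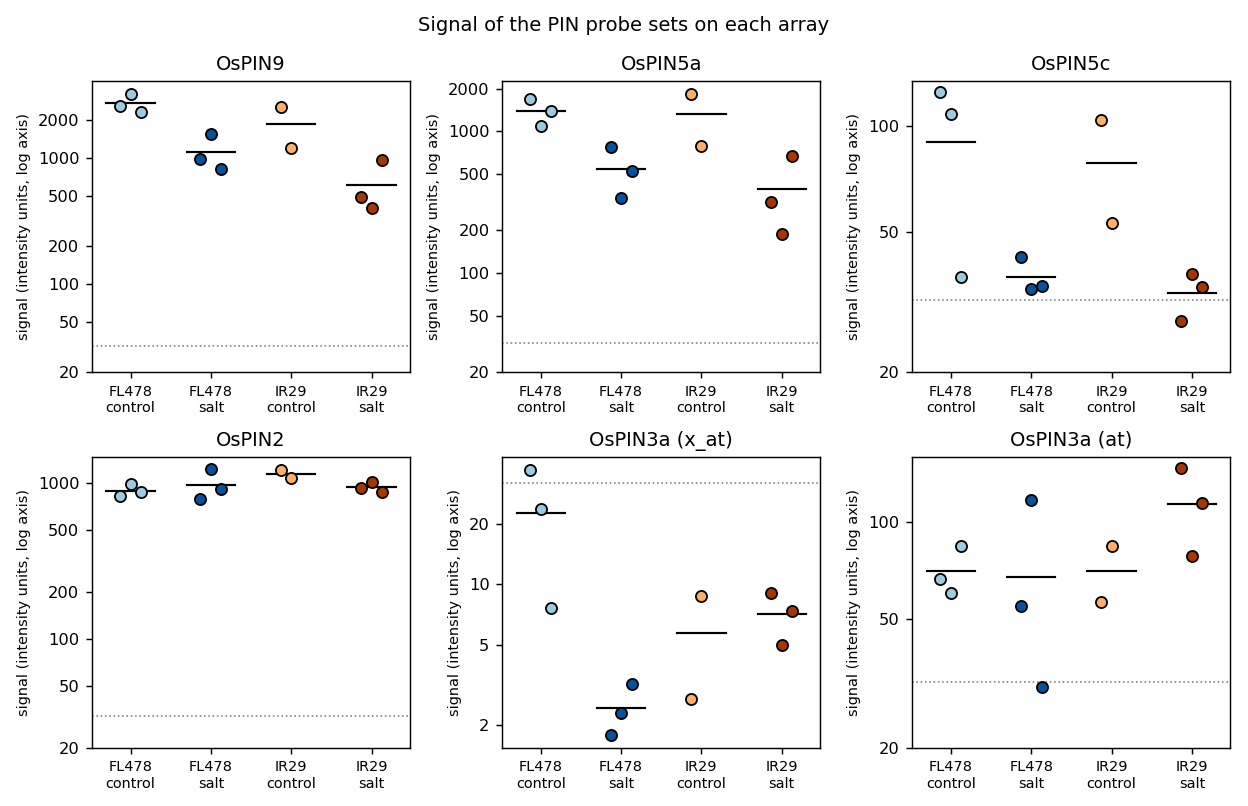
Signal of each PIN probe set on each of the 11 arrays (log axis, intensity units), with a bar at the mean of each group and a dotted line at 32. OsPIN9 ranged from 2336.5 to 3239.8 in the FL478 control and from 819.6 to 1538.3 under salt, while the OsPIN2 arrays of FL478 overlapped. The points of a group are in order of replicate number, and OsPIN3a (at) is the ordinary and OsPIN3a (x_at) the other OsPIN3a probe set.

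OsPIN9 is a PIN gene of monocots with no direct counterpart in Arabidopsis. In FL478 its signals were 2567.6, 3239.8 and 2336.5 in control replicates 1 to 3, and 982.5, 1538.3 and 819.6 under salt. Every control array lay above every salt array, and the mean signal was 2.44 times as high in the control. In IR29 the signals were 2538.3 and 1209.2 in the control and 487.7, 398 and 958.1 under salt. Here too the groups did not overlap, with a control mean 3.05 times the salt mean, but the second control array was much closer to the highest salt array than to the other control array. The salt effect was -1.30 in FL478 (log2 difference, 95% interval -2.13 to -0.46, limma adjusted p = 0.31) and -1.56 in IR29 (-2.49 to -0.63, limma adjusted p = 0.494), neither past the threshold. Without the first IR29 control array the OsPIN9 effect in IR29 was -1.04, and without the second -2.09. The effect in IR29 minus that in FL478 was -0.27 (SE 0.56, 95% interval -1.52 to 0.98, limma adjusted p = 1). Averaged over both genotypes the interval was -2.06 to -0.80.

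The OsPIN9 call at an adjusted p of 0.0935 was close to the threshold. With each of the 11 arrays left out in turn, limma kept it without the second IR29 control array (-1.69, adjusted p = 0.0927) and without the third IR29 salt array (-1.61, adjusted p = 0.0752), and lost it without any one of the other 9, with adjusted p from 0.109 to 0.286. The value stayed between -1.69 and -1.17 throughout. With the GAPDH ratio as a covariate the OsPIN9 value was -0.92 (SE 0.37, limma adjusted p = 0.744). In that fit 0 of all probe sets were called for the averaged salt effect. Between genotypes the same fit called 349 in the control and 942 under salt. The GAPDH ratio of control and salt arrays did not overlap in either genotype, so this fit cannot fully separate the ratio from the salt treatment.

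OsPIN5a (also listed as OsPIN6) is a member of the PIN5 type. Its FL478 signals were 1694.7, 1081.6 and 1395.3 in the control and 772.9, 336.3 and 521.3 under salt. The IR29 signals were 1845.1 and 784.2 in the control and 318.3, 188.3 and 670.9 under salt. Control arrays lay above salt arrays in both genotypes, by a clear margin in FL478 and by a narrow one in IR29, where the second control array and the third salt array came close to each other. The ratio of control to salt means was 2.56 in FL478 and 3.35 in IR29. On the log2 scale the salt effect was -1.36 in FL478 (SE 0.46, limma adjusted p = 0.404) and -1.71 in IR29 (SE 0.52, limma adjusted p = 0.571). The IR29 value was -1.11 without the first IR29 control array and -2.31 without the second. The average over both genotypes was -1.53 (SE 0.35, 95% interval -2.30 to -0.76, limma adjusted p = 0.143), and it was not called. Its size was above that of OsPIN9, but its arrays spread more within groups: the SD of the log2 values of OsPIN5a was 0.32 to 0.85 over the groups, and that of OsPIN9 was 0.24 to 0.74. The OsPIN5a average had an adjusted p of 0.0925 from limma without the third IR29 salt array, which was the 1 of 11 arrays whose removal brought it past the threshold, and of 0.0781 where only probe sets above the median level were tested. With the GAPDH ratio as a covariate it was -1.30 (SE 0.53, limma adjusted p = 0.75).

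The array-by-array orders of OsPIN9 and OsPIN5a were the same in IR29 and differed in FL478. In IR29 the arrays of both genes ran, from high to low, control 1, control 2, salt 3, salt 1 and salt 2. In FL478, replicate 2 was the highest array of its group for OsPIN9 and the lowest for OsPIN5a, in the control and under salt alike. Over the 11 arrays the 2 genes had a Pearson r of 0.85 and a Spearman rho of 0.85 on the log2 scale, a figure to which the shared difference between salt and control contributes. For deviations from the group means r was 0.51, a value that pools the shared order in IR29 with the differing orders in FL478. These points share the same RNA and arrays, and the values are given as a description.

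**Figure D2:**
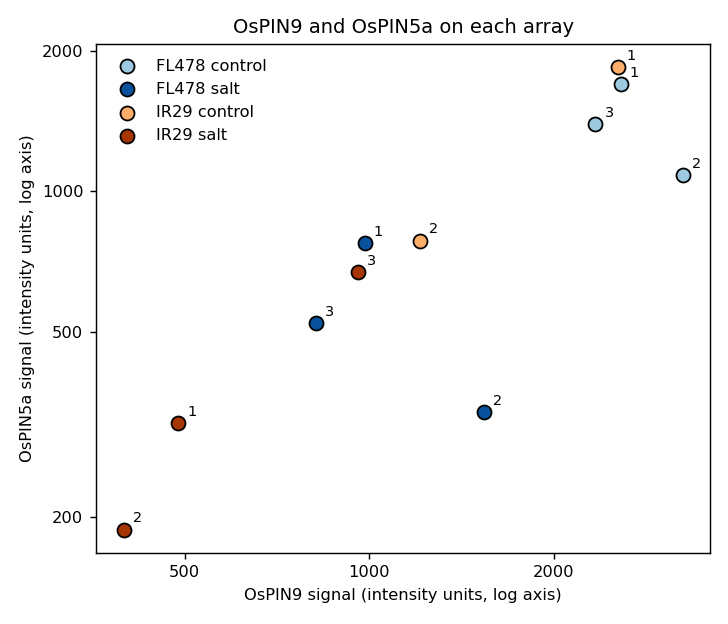
OsPIN5a signal against OsPIN9 signal on each of the 11 arrays (both axes logarithmic, intensity units), coloured by group and numbered by replicate. The FL478 arrays of replicate 2 lie below and to the right of the others of their group (OsPIN9 at 3239.8 and 1538.3, OsPIN5a at 1081.6 and 336.3), and the 5 IR29 arrays form a single ascending line.

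OsPIN5c (also listed as OsPIN4) is likewise of the PIN5 type and was dim. Its FL478 signals were 124.7, 108.6 and 37.3 in the control and 42.4, 34.4 and 35.1 under salt. In IR29 they were 104.2 and 52.9 in the control and 27.9, 38.1 and 34.9 under salt. The third FL478 control array lay among the salt arrays, so the groups overlapped in FL478, while in IR29 both control arrays lay above the 3 salt arrays. The salt effect was -0.74 in FL478 (SE 0.30, limma adjusted p = 0.494), -0.72 in IR29 (SE 0.33, limma adjusted p = 0.821) and -0.72 on average (SE 0.22, limma adjusted p = 0.274). The salt arrays lay between 27.9 and 42.4, close to the offset of 32, a level at which differences are compressed. With values under 32 set to 32 and no offset, the average was -1.10, and it was not called in any fit tried.

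PIN2 of Arabidopsis carries auxin through the outer cell layers of the root tip, and OsPIN2 is needed in rice for the response of roots to gravity. Its signals were 822.9, 980.7 and 870.7 in the FL478 control and 789.4, 1230.2 and 914.2 under salt. In IR29 they were 1209.6 and 1082.5 in the control and 929.2, 1016.9 and 878.7 under salt. The FL478 groups overlapped and the IR29 control arrays lay just above the salt arrays. The salt effect was 0.11 in FL478 (SE 0.18, limma adjusted p = 0.923), -0.28 in IR29 (SE 0.20, limma adjusted p = 0.94) and -0.08 on average. The 95% interval of the average ran from -0.38 to 0.22. The salt effect in IR29 minus that in FL478 was -0.38 (95% interval -0.99 to 0.22, limma adjusted p = 1).

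OsPIN3a belongs to the long-looped group and is known in rice for a part in polar auxin transport. Its ordinary probe set read 66.5, 60.5 and 84.1 in the FL478 control and 55, 117 and 30.8 under salt. In IR29 it read 56.5 and 84.4 in the control and 147.5, 78.5 and 115 under salt. Control and salt arrays overlapped in both genotypes, and the salt effect was -0.13 in FL478 (SE 0.30, limma adjusted p = 0.956) and 0.49 in IR29 (SE 0.34, limma adjusted p = 0.928). The second probe set was under 32 on 10 of 11 arrays, reaching 37 on the first FL478 control array, with 1.8 to 3.2 under salt in FL478 and 2.7 to 9.1 in IR29. Its FL478 arrays did not overlap (log2 difference -0.63, SE 0.20, limma adjusted p = 0.353), and its IR29 value was 0.06 (SE 0.22). With values under 32 set to 32 and no offset, its FL478 value was -0.07 (SE 0.051). The probe sets of OsPIN3a shared the sign of the salt effect in each genotype and differed in that of the average. With the second probe set this close to 0 on most arrays, the data do not show whether the probe sets follow each other.

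**Figure D3:**
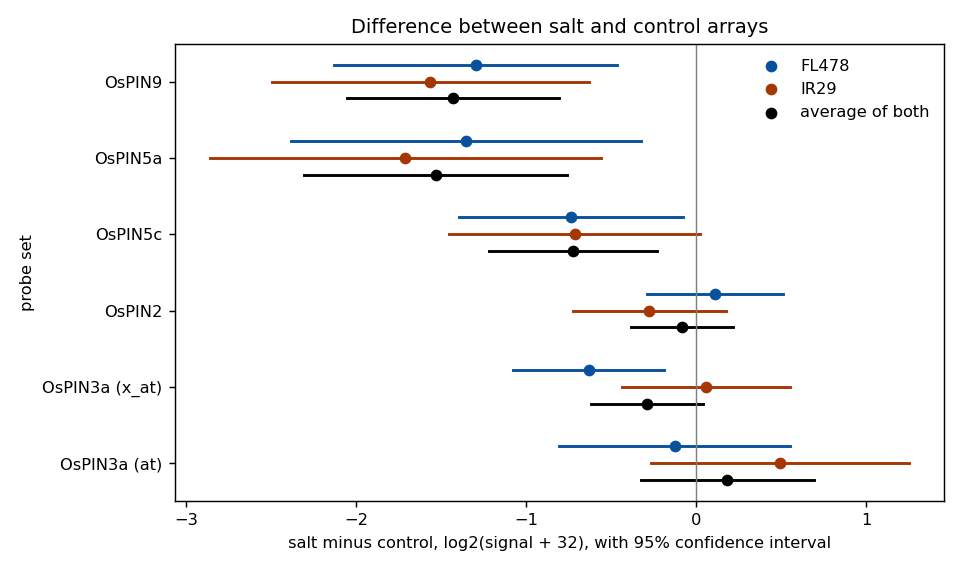
Salt minus control for each PIN probe set on the log2(signal + 32) scale, with 95% confidence intervals, in FL478, in IR29 and averaged over both. The averages of OsPIN9 (-2.06 to -0.80), OsPIN5a (-2.30 to -0.76) and OsPIN5c (-1.22 to -0.23) lie below 0, and that of OsPIN2 (-0.38 to 0.22) spans it. These intervals are not adjusted for the number of probe sets tested.

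Over the 6 PIN probe sets, limma called 0 for salt against control in FL478, against 0.169% of all probe sets, and 0 in IR29, against 0.00524%. At an unadjusted p under 0.05 there were 4 in FL478 and 2 in IR29, where all probe sets gave 8.97% and 6.18%. The 4 in FL478 include the second OsPIN3a probe set, which was under 32 on most arrays. The average over both genotypes gave 1 called, against 0.547% of all probe sets in either direction and 0.355% lower under salt, and 3 at an unadjusted p under 0.05, against 10.3%. The median difference of the average was -0.51 over the PIN probe sets and 0.00 over all probe sets, and 5 of the 6 were lower. Every salt array was under every control array for 3 of 6 in FL478 (OsPIN9, OsPIN5a and the second OsPIN3a probe set), against 6.95% of all probe sets, and for 4 of 6 in IR29 (OsPIN9, OsPIN5a, OsPIN5c and OsPIN2), against 10.9%. It held in both genotypes for OsPIN9 and OsPIN5a, and for 1.57% of all probe sets. For the difference of the salt effects between genotypes limma called 0 of 6, against 0% of all probe sets, with 1 of 6 (the second OsPIN3a probe set) and 4.53% of all at an unadjusted p under 0.05.

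The genotypes were compared at each treatment as well. Limma called 0 of 6 PIN probe sets between IR29 and FL478 in the control, against 0.597% of all, and 0 of 6 under salt, against 1.75%. At an unadjusted p under 0.05 there was 1 of 6 in each, the second OsPIN3a probe set in the control and OsPIN9 under salt, against 7.92% and 11.2%. OsPIN9 in IR29 relative to FL478 was at -0.61 in the control (SE 0.42, limma adjusted p = 0.812) and -0.87 under salt (SE 0.37, limma adjusted p = 0.414), with overlapping arrays in both. The control value rested on both IR29 control arrays, at -1.13 without the first and -0.08 without the second. OsPIN2 was the member with the highest in the control, at 0.35 (SE 0.20, limma adjusted p = 0.749), where both IR29 arrays lay above the 3 FL478 arrays, and stood at -0.03 under salt. OsPIN5a gave -0.18 in the control and -0.53 under salt, with 95% intervals of -1.33 to 0.97 and -1.56 to 0.50.

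**Figure D4:**
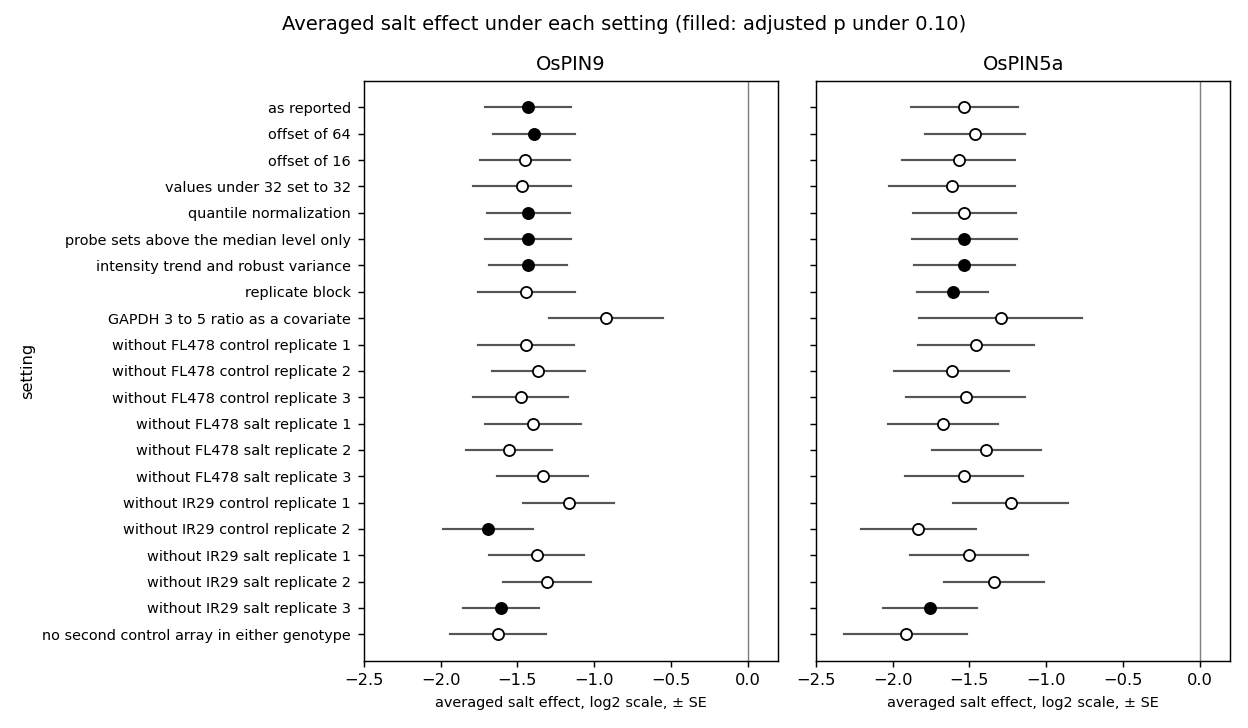
Averaged salt effect of OsPIN9 and OsPIN5a (log2 scale, with SE) as reported and under each other setting, with filled points where the limma adjusted p was under 0.10. All points lie below 0, from -1.69 to -0.92 for OsPIN9 and from -1.92 to -1.23 for OsPIN5a. OsPIN9 was past the threshold without 2 of the 11 arrays and OsPIN5a without 1.

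The endodermis list held only 2 measured genes, and both were lower on average under salt without being called. Every Lsi2 salt array was under every control array in both genotypes, as for 1.57% of all probe sets. The OsCASP1 arrays overlapped in FL478 and not in IR29. In IR29, 10.9% of all probe sets had every salt array under every control array. The summed signal of Lsi2, a silicon exporter of the exodermis and endodermis, and OsCASP1, which helps build the Casparian strip, was 21400 to 23360 in the FL478 control and 18030 to 18930 under salt. In IR29 the sum was 21280 to 24380 in the control and 13400 to 17500 under salt. Neither gene was called (Lsi2 -0.52, limma adjusted p = 0.181; OsCASP1 -0.27, adjusted p = 0.652), and the sum is mostly Lsi2. Lsi2 read 17707.2 to 18218.9 in the FL478 control and 13698.8 to 15036.5 under salt, and 16109.2 to 20171.1 and 9641.2 to 13808.4 in IR29, with no overlap in either genotype. OsCASP1 read 3691.3 to 5143 in the FL478 control and 3045.5 to 5228.4 under salt, which overlap, and 4206.5 to 5166.3 and 3142.3 to 3776.5 in IR29, which do not. Of 5 measured root markers, Lsi2 among them, 2 were lower on average, with a median of 0.03. Lsi1 had an averaged value of 0.03 (limma adjusted p = 0.97) and SCR1 one of 0.215 (limma adjusted p = 0.675). Of 9 measured markers of dividing cells 3 were lower on average, with a median of 0.05. Of 3 cellulose synthases of xylem and fibres 0 were lower, with a median of 0.23. The part of a shift in cell types in the OsPIN9 and OsPIN5a values was not tested.

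By Pearson r over the 11 arrays on the log2 scale, the patterns most like each PIN gene were sought among 17884 probe sets with a single named gene and a level above the median. For OsPIN9 they were LOC4338154 (r 0.98), LOC4345318 (0.95) and LOC4351850, listed as ADK-A (0.95). LOC4338154 fell by 1.29 on average (SE 0.24, limma adjusted p = 0.0827), close to the size of the OsPIN9 value. ADK-A fell by 0.89 (SE 0.15, limma adjusted p = 0.056). LOC4345318 fell by less, at -0.365 (SE 0.13, limma adjusted p = 0.347). LOC4338154 had 1815.7 on FL478 control array 2 and 809.4 on FL478 salt array 2, the highest array of each FL478 group. ADK-A had its highest FL478 salt array at replicate 1 (13867.3). All such genes were chosen for their r over these 11 arrays, salt and control together. A shared array order, a fall under salt and its adjusted p therefore follow in part from the choice.

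For OsPIN5a the nearest patterns were LOC4326245 (r 0.97), the potassium channel AKT1 through which roots take up potassium, LOC4332752 (0.97) and LOC4324655, listed as SAT1 (0.96). The AKT1 signals were 11447.9, 8641.6 and 10458.7 in the FL478 control and 7890.6, 5499.3 and 6057.2 under salt, with replicate 2 lowest in both groups as for OsPIN5a. In IR29 they were 16060.2 and 7506 in the control and 5082.2, 4190.4 and 7060.4 under salt, in the same order as OsPIN5a. AKT1 had an averaged salt effect of -0.85 (SE 0.22, limma adjusted p = 0.207), and SAT1 fell by 1.31 (SE 0.26, limma adjusted p = 0.0954). LOC4332752 had a smaller one, at -0.354 (SE 0.12, limma adjusted p = 0.336). For OsPIN5c the highest r was 0.88, for the magnesium transporter gene MRS2-G, for OsPIN2 0.90, for LOC4325117, and for OsPIN3a 0.91, for LOC4344189. All these genes were chosen by r over the same 11 arrays, so their salt effects and adjusted p follow in part from the choice. The values are descriptions.

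**Figure D5:**
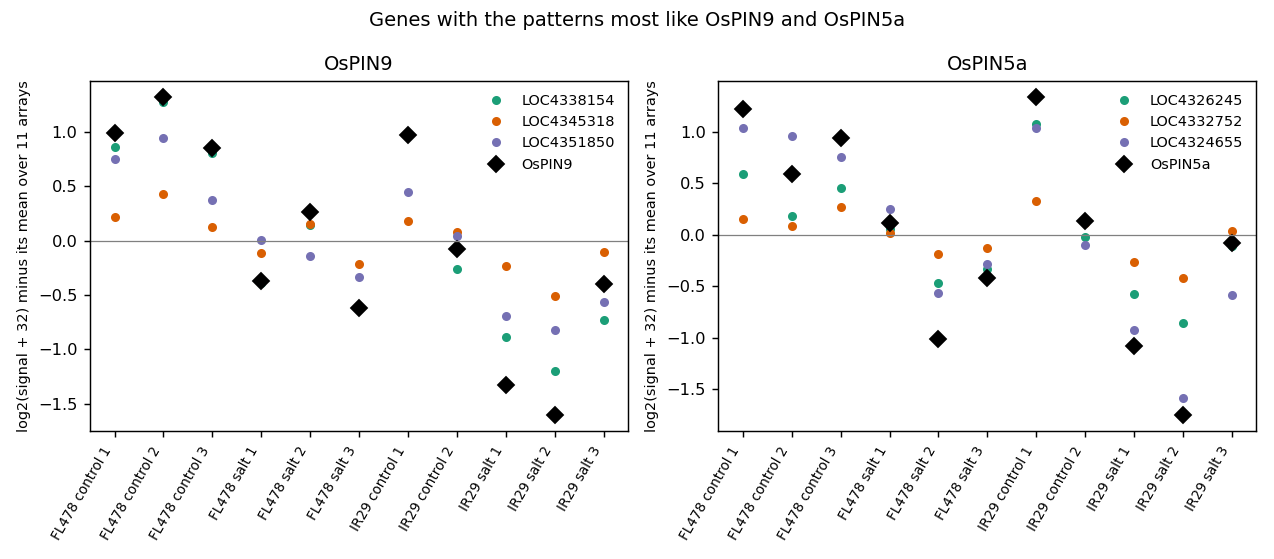
Log2(signal + 32) minus its mean over the 11 arrays for OsPIN9 and OsPIN5a (diamonds) and the 3 genes with the highest Pearson r to each (circles), array by array. LOC4338154 (r 0.98) runs close to OsPIN9, and LOC4326245, the AKT1 gene (r 0.97), keeps the order of OsPIN5a within each genotype over a smaller range.

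Other genes of auxin transport, synthesis and response were read from the same fit. Name patterns for influx carriers, PILS carriers and auxin receptors matched 0 genes. The 1 matched ABCB transporter was mdr17. The 2 synthesis genes were YUCCA1 and TAR2, which act in successive steps to make auxin from tryptophan. PINOID is a kinase that steers PIN proteins in Arabidopsis. These genes gave 0 calls in all 6 comparisons, where 0% to 1.75% of all probe sets were called. Their averaged salt effects were 0.24, -0.21, 0.06 and 0.15 in that order. YUCCA1 was dim, with group means of 34.4 to 75.2, where the offset shrinks differences. Between genotypes under salt, mdr17 had 0.76 at an unadjusted p under 0.05 from limma, against 11.2% of all probe sets. PINOID had a mean signal of 384.9 in the FL478 control, 359.8 under salt, 328.4 in the IR29 control and 429.1 under salt.

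Lists of response genes were added after the first lists were seen to match few genes. Of 26 measured Aux/IAA genes, which encode repressors of auxin response, 17 were higher and 9 lower on average, with a median of 0.13, and limma called 0 (0.547% of all probe sets), with 7 of 26 at an unadjusted p under 0.05 (10.3% of all probe sets). IAA10 (LOC4331149) had the highest absolute value, at 0.70 (SE 0.20, limma adjusted p = 0.246). Of 17 auxin response factors 15 were higher and 2 lower, with a median of 0.12, 0 calls by limma and 1 at an unadjusted p under 0.05, against the same shares of all probe sets. Of 9 GH3 genes, which encode enzymes that conjugate auxin and other hormones to amino acids, 6 were higher and 3 lower, with a median of 0.04, and 0 were called or had an unadjusted p under 0.05. The 1 measured PINOID-like kinase had 0.29 (SE 0.17, limma adjusted p = 0.641). The 1 call among the added lists over all 6 comparisons was GH3.6 (LOC4337780), named after its values were seen, in the comparison of IR29 with FL478 under salt, where 1.75% of all probe sets were called. Under salt its signal was 1014.2 to 1216.8 in FL478 and 1789.8 to 2075.7 in IR29, a log2 difference of 0.75 (SE 0.15, limma adjusted p = 0.0516).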

How the data were processed

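RNA of root tips was measured on 11 Affymetrix Rice Genome Arrays. The authors computed the deposited intensity values with GCOS (version not given in the sources used here), on a linear scale and with the same 2% trimmed mean on every array. The study's own tests used RMA values, which were not used here. Of 57381 rows, 123 Affymetrix controls were left out. Genes were named through the platform annotation, in which 22436 probe sets had 1 gene, 95 had several and 34727 were unnamed, with symbols from RefSeq (assembly ASM3414082v1).

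Log2(value + 32) was fitted in limma 3.58.1 (R 4.3.3) with 1 mean per group (7 residual and 3 prior degrees of freedom), and p-values were adjusted by Benjamini-Hochberg over all probe sets. The labels name biological replicates, and where these were not separate plants the p-values measure the spread between arrays only. The number of arrays limits the precision. Named were every PIN gene, up to 4 members per auxin list with the largest averaged salt effect, and the 3 genes most like each PIN gene above the median level. The members and lists were chosen with earlier results of these data known. The fit was tested on simulated data. Alternatives were offsets of 16 and 64, a floor of 32, a variance prior that follows intensity and resists outliers, leaving out probe sets at or below the median level, quantile normalization, each genotype by itself, replicate number as a block, the GAPDH ratio as a covariate, and each array left out. Sequences of promoters and proteins were not analysed here. Figures were drawn with matplotlib 3.10.9.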

Additional observations from a re-analysis of the deposited data

How the results depend on the processing

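The count of PIN probe sets called by limma was 0 under every setting in the 2 within-genotype salt comparisons, the difference of the salt effects and the 2 genotype comparisons. The count for the averaged salt effect, 1 as reported, was 0 with an offset of 16, with values under 32 set to 32 and with the GAPDH ratio as a covariate, 2 with probe sets above the median level only and with the intensity trend and robust variance, and 0 to 2 with an array left out. It was 0 without the second control array of both genotypes, a setting chosen after seeing the data. Over all probe sets that average gave 313 calls, 144 with an offset of 16, 653 above the median level, 0 with the GAPDH ratio, and 9 without the first IR29 control array. Over all settings the calls ran from 0 to 256 in FL478 (97 as reported), 0 to 80 in IR29 (3), 0 to 41 for the difference of salt effects (0), and 86 to 527 and 432 to 1418 between genotypes in the control (342) and under salt (1000). Fitting each genotype by itself gave no averaged or between-genotype value. Whether replicate numbers pair the arrays is not settled by these data, and the reported fit used no pairing. Deviations of same-numbered arrays were correlated at -0.14 to 0.34 (median 0.14 over 15 pairs). Those of other arrays were correlated at -0.40 to 0.23 (median -0.09 over 30). With the replicate block the average still gave 1 PIN call, OsPIN5a (-1.61, adjusted p = 0.055) in place of OsPIN9 (-1.44, adjusted p = 0.136), and all calls numbered 498. Signs turned for 28 values, all uncalled and 20 of them with an array left out. With the GAPDH ratio they were OsPIN2 on average (0.014) and between genotypes under salt (0.019), the ordinary OsPIN3a probe set in FL478 (0.18) and between genotypes in the control (0.12, and 0.001 with quantile normalization), its second probe set in IR29 (-0.007), and the OsPIN5c difference of salt effects (-0.02, and -0.002 with an offset of 16). With each array left out, the salt effect in FL478 ran from -0.063 to 0.247 for OsPIN2 and from -0.463 to 0.16 for the ordinary OsPIN3a probe set, and that in IR29 from -0.06 to 0.173 for the second. The difference of salt effects ran from -0.79 to 0.26 for OsPIN9, from -0.955 to 0.246 for OsPIN5a and from -0.322 to 0.385 for OsPIN5c. IR29 minus FL478 in the control ran from -0.779 to 0.423 for OsPIN5a, from -0.465 to 0.242 for OsPIN5c and from -0.203 to 0.192 for the ordinary OsPIN3a probe set, and under salt from -0.169 to 0.141 for OsPIN2. The cause of these turns was not tested.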
